A study of Mus musculus with 6 samples.

Results

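The products of the miR-23/27/24 clusters were examined in small RNA libraries of extracellular vesicles, membrane-bound particles released by cells, from mouse bone. Vesicles had been taken from the crushed tibias and femurs of untreated male Swiss-CD1 mice at 8 weeks of age, after soft tissue was cleaned off, the epiphyses were cut and the marrow was spun out. Large vesicles (lEVs) were pelleted at 10000 g, while small vesicles (sEVs) were what the remaining supernatant left on a 30% sucrose cushion at 100000 g, with 3 libraries of each. Nothing in the labels ties a replicate to its own animal or preparation, and the tests measure only the spread between these libraries, which may be technical. Members were taken by name from the deposited table of mature miRNAs, 4 of its 1927 rows: miR-23a-3p/23b-3p, miR-27a-3p/27b-3p, miR-24-3p and miR-27a-5p. The first and second of these join the near-identical products of both clusters in a single row.

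Each cluster is transcribed as a single precursor, from which Drosha and Dicer cut the 3 hairpins and then the mature strands that guide silencing of matching messenger RNAs. One cluster carries miR-23a, miR-27a and miR-24-2, the other miR-23b, miR-27b and miR-24-1, and both hairpins of miR-24 give the same mature strand. The clusters are known from endothelial cells, where miR-27 and miR-23 act in vessel sprouting, and from bone, where the miR-23a cluster restrains osteoblast differentiation. miR-23a is also known for repressing glutaminase, miR-27 for repressing the fat cell regulator Pparg, and miR-24 for repressing cell cycle and cell death genes.

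Mature sequences are shown because the seed, bases 2 to 8 in capitals, sets which messengers a strand can pair with, and because it shows which products the table could not separate. Of the 6 names in the 4 rows, 5 were matched in RefSeq (GRCm38.p6), and miR-23b-3p was not.
miR-23a-3p: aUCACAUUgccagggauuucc
miR-27a-3p: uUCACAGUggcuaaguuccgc
miR-27b-3p: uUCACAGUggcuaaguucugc
miR-24-3p: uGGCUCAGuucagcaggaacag
miR-27a-5p: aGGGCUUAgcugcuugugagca
miR-27a-3p and miR-27b-3p shared the seed and differed by C19U, counted from the 5′ end of miR-27a-3p. The 5 sequences therefore held 4 different seeds. The other tested miRNA closest to a member by seed was miR-128-3p, chosen after its values were seen, whose bases 2 to 7 are bases 3 to 8 of miR-27.
miR-128-3p: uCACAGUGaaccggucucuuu
Seed bases 2 to 8 of miR-24-3p recur in miR-6413, miR-6410, miR-6369 and miR-5124b, all of which stood at 0 in the 6 libraries. The letters GGAG and CCCU, known from studies of miRNA sorting into exosomes by hnRNPA2B1, were searched in the mature strand as written. Neither occurred in the 5 member sequences, against 10.2% and 8.03% of the 137 sequences matched to tested rows.

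The hairpins lie on the plus strand of GRCm38.p6. On chromosome 8, Mir23a, Mir27a and Mir24-2 span 404 bases, from 84208518 to 84208921. Mir23a and Mir27a overlap no other annotated gene in GENCODE M21, and Mir24-2 reaches into the first exon bases of the noncoding RNA Gm26532. On chromosome 13, Mir23b, Mir27b and Mir24-1 span 792 bases, from 63300484 to 63301275, inside the protein-coding gene 2010111I01Rik on the same strand and antisense to Fancc. There Mir23b is intronic, while Mir27b and Mir24-1 overlap exons of some 2010111I01Rik transcripts. The hairpin of miR-27a at chr8:84208672-84208758 is shown with both of its measured arms in capitals, and those of miR-24-2 at chr8:84208815-84208921 and miR-24-1 at chr13:63301208-63301275 with the identical mature strand in capitals, so that the counts of miR-24-3p cannot be assigned to either cluster.
Mir27a: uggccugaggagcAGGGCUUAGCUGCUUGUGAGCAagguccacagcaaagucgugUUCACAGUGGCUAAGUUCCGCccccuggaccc
Mir24-2: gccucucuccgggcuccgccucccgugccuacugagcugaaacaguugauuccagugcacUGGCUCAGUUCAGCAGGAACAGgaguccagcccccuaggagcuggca
Mir24-1: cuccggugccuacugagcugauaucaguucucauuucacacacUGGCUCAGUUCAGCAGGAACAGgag

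Of the 4 members, only miR-27a-5p points to a single cluster, the one on chromosome 8. The other arms of the 6 hairpins, and those of the miR-3074 hairpins antisense to miR-24, mostly belong to one cluster each, and 8 such names are in the table. Of these, 7 stood at 0 in every library, and miR-23b-5p had 2 counts in sEVs replicate 2. The share of each cluster in the 3 abundant rows was therefore not measured here.

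Libraries held between 47441 counts (lEVs replicate 1) and 114331 counts (sEVs replicate 3). Within each fraction, values below are listed in the order of replicates 1, 2 and 3. Abundances are in CPM (each count divided by its library's size) after TMM factors, which centre the bulk of miRNAs between libraries. The TMM factor of lEVs replicate 1 was 0.853, against 0.952 to 1.18 in the other 5 libraries, and with library totals in place of these factors the median over the 145 tested rows shifted from -0.04 to -0.18 on the log2 fold change scale. Mesenchymal markers (miR-199a-3p and miR-199b-3p in a joined row, miR-214-3p, miR-143-3p, miR-145a-5p) were above 0 in every library, 4 of 4 rows, as were 2 of 2 endothelial, 3 of 3 myeloid, 3 of 3 skeletal muscle and 2 of 2 cartilage rows. Of 4 erythroid rows, 3 were, and miR-144-3p was at 0 in lEVs replicate 1. The cartilage markers, both arms of miR-140, summed to 23819 CPM in lEVs replicate 1, against 11470 to 12828 CPM in the other 5 libraries. The erythroid sum was also highest in lEVs replicate 1, with 8747 CPM against 4498 to 5962 CPM in the other 5 libraries. It was carried there by the joined row of miR-486a-5p and miR-486b-5p, with 345 counts. The other erythroid rows did not share this: miR-451a had 6 counts there, against 19 to 41 in the other 5, larger libraries, and miR-144-5p had 3.

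Among the cluster products, miR-23a-3p/23b-3p rose in small vesicles, and miR-24-3p stood at nearly the same level in both fractions. miR-27a-3p/27b-3p, the most abundant product in 6 of 6 libraries, was 1.27-fold higher in sEVs and did not pass the test. The rare arm miR-27a-5p was 2.81-fold higher, also without passing. Together the 4 rows took 2.00%, 1.95% and 2.07% of sEVs counts and 1.46%, 1.69% and 1.68% of lEVs counts. The fractions did not overlap (2.01% ± 0.0565 against 1.61% ± 0.131; SD, n = 3 per fraction), as was so in CPM for 44.1% of the tested rows. The two-sided exact permutation p was 0.1, below which 3 against 3 libraries cannot go. In edgeR's quasi-likelihood test over the 145 tested rows, 1 of the 4 was called at an adjusted p under 0.05, where 17.2% of all tested rows were called and 8.28% were called higher in sEVs. The calls split into 12 higher and 13 lower in sEVs, and with library totals into 11 higher and 24 lower. All 4 passed the filter on low counts, miR-27a-5p by its sEVs libraries alone. More vesicles carrying a miRNA and more copies per vesicle, or other contributing cells, cannot be told apart in such bulk samples, nor can size, spin and cushion.

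**Figure D1:**
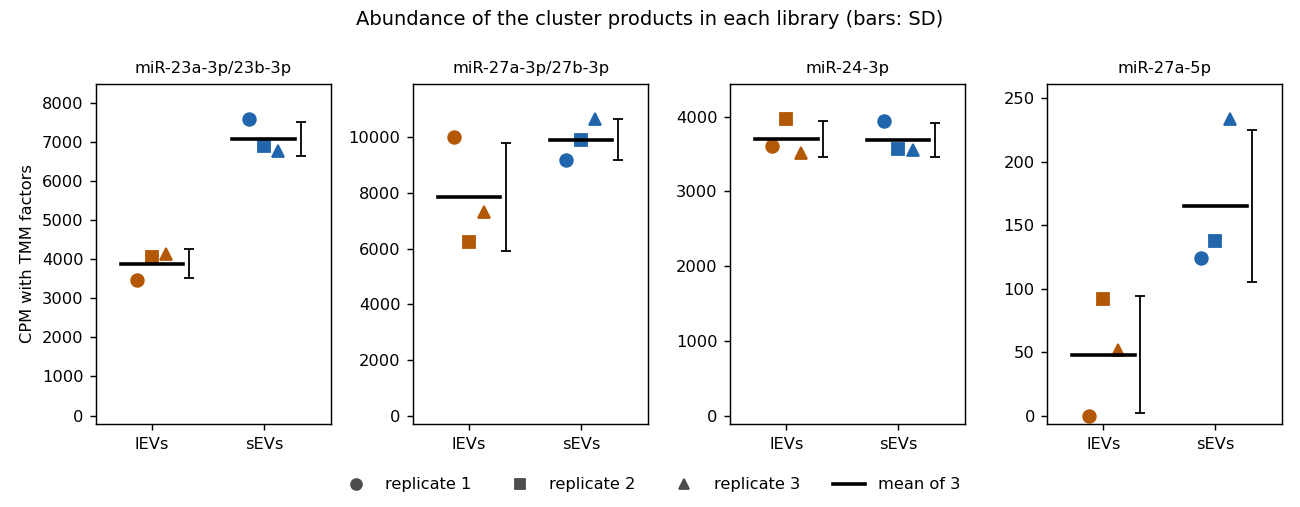
CPM with TMM factors (y axis, from 0) of the 4 cluster products in the 3 lEVs and 3 sEVs libraries, one panel per row of the table, with points for libraries, black lines for means and bars for SD. The sEVs points of miR-23a-3p/23b-3p all lie above its lEVs points, those of miR-24-3p interleave, and lEVs replicate 1 is the highest lEVs point of miR-27a-3p/27b-3p.

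miR-23a-3p/23b-3p had 550, 652 and 754 counts in sEVs, or 7590, 6893 and 6769 CPM. In lEVs it had 140, 441 and 401 counts, or 3459, 4049 and 4142 CPM. The lowest sEVs library thus stood above the highest lEVs library, as the fractions were also apart for 44.1% of the tested rows. Its log2 fold change was 0.86 (SE 0.13; 7084 ± 443 against 3883 ± 370 CPM; SD, n = 3 per fraction; edgeR adjusted p = 0.00263). As shares of library totals, which use no TMM factor, it held 0.682% ± 0.0408 of sEVs and 0.412% ± 0.101 of lEVs counts (SD, n = 3 per fraction), and edgeR then gave a log2 fold change of 0.72 (adjusted p = 0.0353). By abundance it was in place 23 of each sEVs library and in places 37, 32 and 33 of lEVs.

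Endothelial markers also stood higher in sEVs: miR-126a-3p and miR-126a-5p summed to between 84552 and 89562 CPM in sEVs and between 66277 and 76399 CPM in lEVs, with 0 of 2 called. In CPM the fractions were apart for 44.1% of all tested rows. The part of the endothelial markers in the result was not tested. Per 1000 counts of miR-126a-3p, a ratio added after the data were seen, miR-23a-3p/23b-3p stood at 94.0, 87.8 and 91.5 counts in sEVs and at 49.1, 69.6 and 67.9 in lEVs. On the same scale miR-27a-3p/27b-3p stood at 114, 126 and 144 in sEVs and at 142, 107 and 120 in lEVs. miR-24-3p stood at 48.9, 45.4 and 47.9 in sEVs and at 51.2, 68.2 and 57.6 in lEVs. Against this reference the fractions did not overlap for miR-23, which was higher in sEVs, nor for miR-24, which was lower there, and they overlapped for miR-27 (exact two-sided permutation p = 0.1, 0.1 and 0.7). Over all 10440 pairs of tested rows, 45.7% of the log2 ratios did not overlap either. The sum of the skeletal muscle markers was lower in sEVs, with 17347 to 20541 CPM against 20879 to 21952 CPM in lEVs and 0 of 3 called. Their log2 fold changes differed in sign, with 0.18 for miR-1a-3p, the most abundant, -0.85 for the joined row of miR-133a-3p and miR-133b-3p, and -0.67 for miR-206-3p.

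miR-27a-3p/27b-3p had 665, 938 and 1187 counts in sEVs, or 9177, 9916 and 10656 CPM. In lEVs it had 405, 680 and 708 counts, or 10007, 6243 and 7312 CPM, so lEVs replicate 1 lay among the sEVs libraries and the other lEVs libraries lay below them. The log2 fold change was 0.34 (SE 0.19, 95% interval -0.09 to 0.78; edgeR adjusted p = 0.196). Without lEVs replicate 1 it was 0.54 and passed (edgeR adjusted p = 0.00137). Calls rose across the table in that fit, to 52 of 151 tested rows, against 25 of 145 with all libraries. The sum of the cartilage markers was also highest in lEVs replicate 1. So was the erythroid sum, but through the joined row of miR-486a-5p and miR-486b-5p, while miR-451a had 6 counts there and miR-144-3p 0. The part of these markers was not tested. On library totals lEVs replicate 1 no longer lay among the sEVs values: the shares were 0.881%, 0.944% and 1.04% in sEVs and 0.854%, 0.735% and 0.817% in lEVs, while edgeR with library totals gave a log2 fold change of 0.25 (adjusted p = 0.215).

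miR-24-3p had 286, 337 and 395 counts in sEVs, or 3947, 3563 and 3546 CPM, and 146, 432 and 340 counts in lEVs, or 3607, 3966 and 3512 CPM. The fractions overlapped fully. Its log2 fold change was -0.01 (SE 0.12, 95% interval -0.29 to 0.28, edgeR adjusted p = 0.964), and differences inside that interval remain compatible with these values. On the same log2 CPM scale its SD over the 6 libraries, 0.08, was the third smallest among the 142 rows with a mean of at least 100 CPM. That evenness belongs to the TMM scale: as shares of library totals it held 0.355% ± 0.0213 in sEVs and 0.389% ± 0.0797 in lEVs (SD, n = 3 per fraction), with a log2 fold change of -0.14 in edgeR with library totals (adjusted p = 0.620).

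miR-27a-5p, the less used arm of the miR-27a hairpin, had 9, 13 and 26 counts in sEVs and 0, 10 and 5 in lEVs. The sEVs libraries stood at 124, 137 and 233 CPM and the lEVs libraries at 0, 91.8 and 51.6 CPM. It reached the filter's cutoff of 112 CPM, taken without TMM factors, in 3 sEVs libraries and 0 lEVs libraries. It thus entered the test through the fraction where it was higher, and its difference and the lack of overlap are given as a description. The log2 fold change was 1.49 (SE 0.58; edgeR adjusted p = 0.104), and 1.48 with no filter on low counts (edgeR adjusted p = 0.0570). It passed in none of the 14 other settings tried. Since the table holds no value of 1, the 0 may stand for 1 count, and no limit was set from it. Reading each 0 as 1 count gave a log2 fold change of 1.42 (adjusted p = 0.0608).

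**Figure D2:**
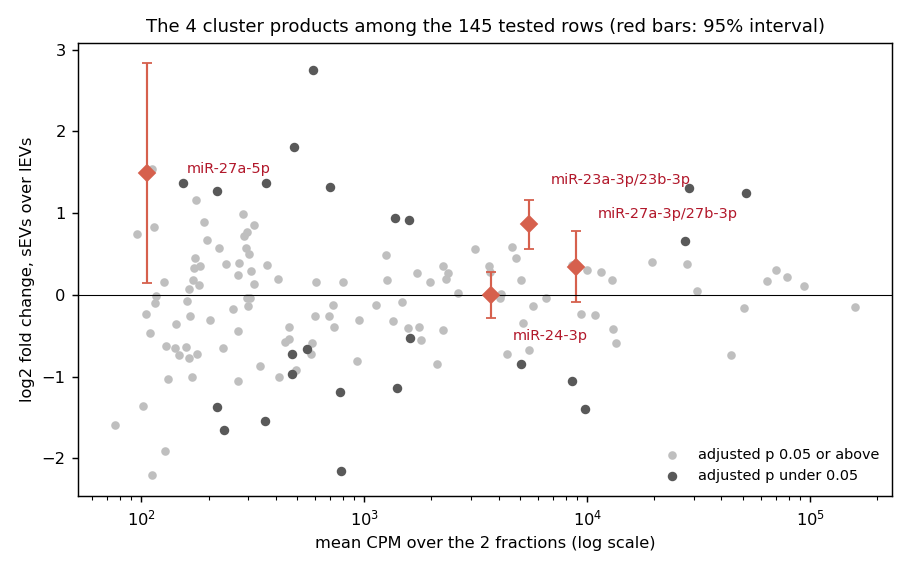
Log2 fold change of sEVs over lEVs (y axis) against mean CPM (x axis, log scale) for the 145 tested rows, with the 4 cluster products in red and their 95% intervals. Only miR-23a-3p/23b-3p among them has an adjusted p under 0.05, and the interval of the rare miR-27a-5p is the widest of the 4.

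Ratios between products within a library need no scaling factor, and ask whether the make-up of the clusters' output differed between the fractions. For each count of miR-24-3p there were 1.92, 1.93 and 1.91 counts of miR-23a-3p/23b-3p in sEVs. In lEVs there were 0.959, 1.02 and 1.18, so both rows were about equally counted in lEVs and miR-23 was ahead in every sEVs library. The exact Clopper-Pearson 95% intervals, which cover counting error only, reached down to 1.66 in sEVs and up to 1.37 in lEVs. The ratio averaged 1.92 ± 0.0130 in sEVs against 1.05 ± 0.114 in lEVs (SD, n = 3 per fraction; two-sided exact permutation p = 0.1, or 0.267 after Benjamini-Hochberg adjustment over 4 ratios). In a limma fit of the log2 ratios of 144 tested rows to miR-24-3p, its difference was 0.87 (SE 0.16; adjusted p = 0.00420). Of all rows in that fit 16.7% were called and 8.33% were called higher in sEVs, and this one was in place 11 by p. The call held in 11 of 11 other settings, with each library left out among them.

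The ratio of miR-27a-3p/27b-3p to miR-24-3p was 2.33, 2.78 and 3.01 in sEVs and 2.77, 1.57 and 2.08 in lEVs. lEVs replicate 1 lay among the sEVs libraries. The log2 difference was 0.37 (SE 0.22, 95% interval -0.13 to 0.86; limma adjusted p = 0.254), and without lEVs replicate 1 it was 0.57 (limma adjusted p = 0.0226). The ratio of miR-23a-3p/23b-3p to miR-27a-3p/27b-3p was 0.827, 0.695 and 0.635 in sEVs and 0.346, 0.649 and 0.566 in lEVs. Here sEVs replicate 3 lay below lEVs replicate 2, and the log2 difference of 0.51 did not pass (SE 0.27, 95% interval -0.05 to 1.07; limma adjusted p = 0.162, in a fit where 29.2% of rows were called). It was 0.24 without lEVs replicate 1 (limma adjusted p = 0.217) and 0.69 without lEVs replicate 2 (limma adjusted p = 0.0530). In the limma fits, a difference between the changes of miR-23 and miR-27 thus did not pass, while that between miR-23 and miR-24 did. The exact permutation test, with so few libraries, could pass neither.

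**Figure D3:**
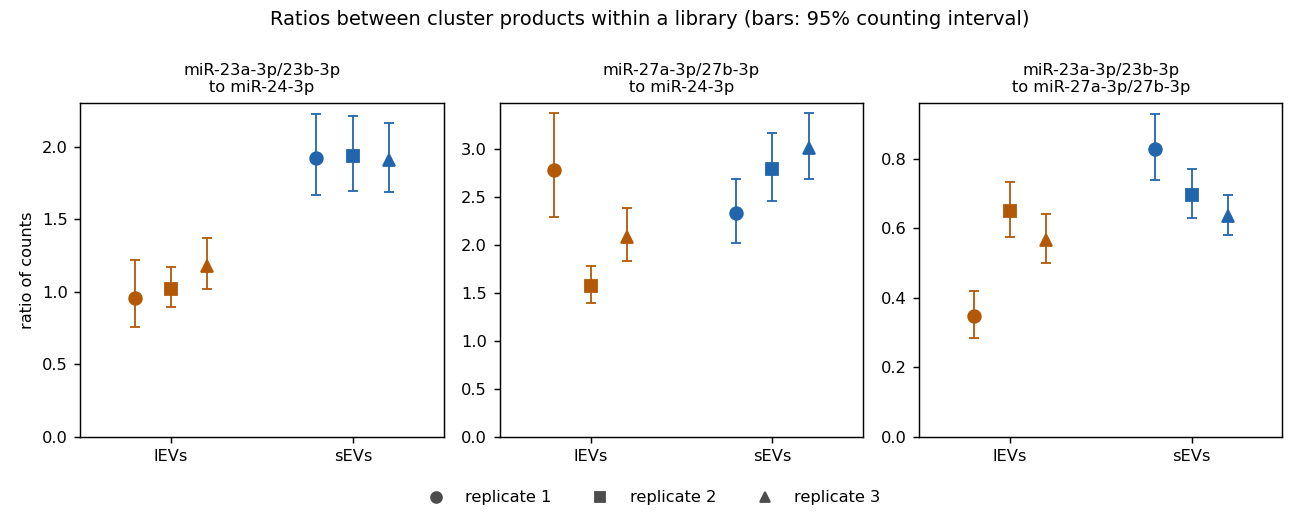
Ratio of counts of 2 cluster products within each library (y axis, from 0), with points for libraries and bars for 95% counting intervals. The miR-23 to miR-24 ratio is near 1.92 in all 3 sEVs libraries and between 0.959 and 1.18 in lEVs, while in the other panels the fractions overlap.

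miR-27a-5p made 1.35, 1.39 and 2.19 counts per 100 of the miR-27a-3p/27b-3p row in sEVs and 0, 1.47 and 0.706 in lEVs. The 3p strand was the main arm in every library, with the reserve that its row also holds miR-27b. The log2 difference of this ratio, a description for the same reason, was 1.65 with a pseudocount of 0.5 (limma adjusted p = 0.158). It was 0.60 without lEVs replicate 1, the library with the 0, 2.42 without lEVs replicate 2 (limma adjusted p = 0.0530), and 1.03 in edgeR with the 3p row as offset.

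Within the summed counts of the 3 abundant rows, miR-23a-3p/23b-3p made up 36.6%, 33.8% and 32.3% in sEVs and 20.3%, 28.4% and 27.7% in lEVs. miR-24-3p took the reverse course, with 19.1%, 17.5% and 16.9% in sEVs and 21.1%, 27.8% and 23.5% in lEVs. Neither overlapped between the fractions (two-sided exact permutation p = 0.1 for each). Lack of overlap was common, being found for 45.7% of the log2 ratios of all pairs of tested rows. miR-27a-3p/27b-3p took 47.9% ± 3.32 in sEVs and 50.4% ± 7.53 in lEVs (SD, n = 3 per fraction; exact permutation p = 0.8), and its difference turned from -2.49 to 1.61 percentage points without lEVs replicate 1. These shares restate the same counts as the ratios and are no separate support.

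**Figure D4:**
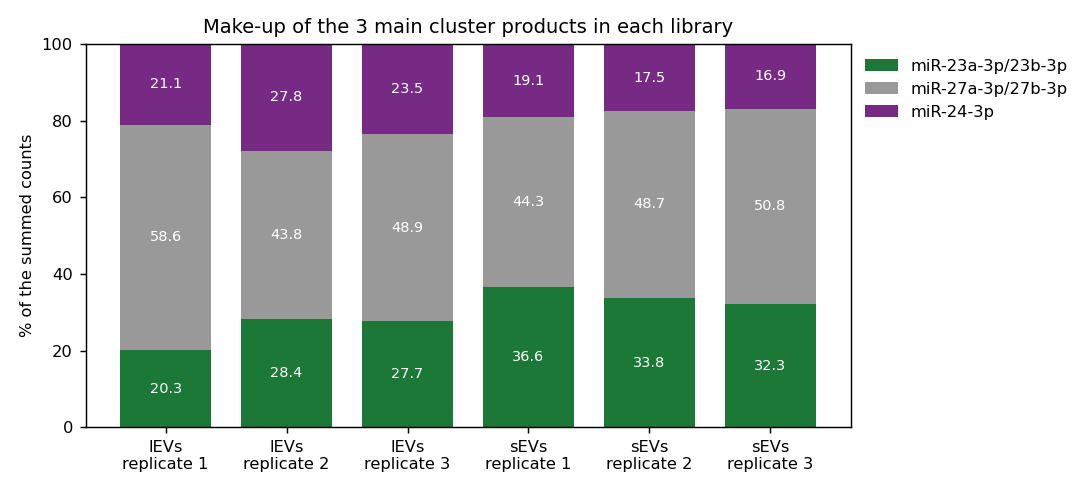
Percentage of the summed counts of miR-23a-3p/23b-3p, miR-27a-3p/27b-3p and miR-24-3p (y axis) taken by each in the 6 libraries, as stacked bars with printed values. The miR-23 segment is 32.3% or more in sEVs and 28.4% or less in lEVs.

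Neighbouring miRNAs of 6 other clusters were set beside these ratios by mature name, as a description. A row can hold products of more than 1 locus, as the joined row of miR-199a-3p and miR-199b-3p does. Across all 10440 pairs of tested rows, the log2 ratios did not overlap between the fractions for 45.7%, so a ratio without overlap was common in these libraries. Of the 6 neighbour ratios 2 did not overlap. That of miR-143-3p to miR-145a-5p, from the smooth muscle cluster, differed by 1.64 on the log2 scale, and that of miR-191-5p to miR-425-5p by -0.68. The ratio of miR-181a-5p to miR-181b-5p, with a difference of 0.57, overlapped, as did those of the joined row of miR-199a-3p and miR-199b-3p to miR-214-3p (0.13), miR-29a-3p to miR-29b-3p (0.02) and miR-221-3p to miR-222-3p (-0.05). Of the 6, 1 exceeded the 0.87 of miR-23a-3p/23b-3p to miR-24-3p.

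The 3 abundant products each had other nearest rows by their pattern over the 6 libraries, measured as the root-mean-square difference of log2 CPM profiles centred on their means, among 139 rows of at least 100 CPM. For miR-23a-3p/23b-3p these were the lymphocyte miRNA miR-150-5p (0.07), miR-10b-5p (0.18) and miR-143-3p (0.19), against a median of 0.57 over the candidates. For miR-27a-3p/27b-3p they were let-7a-5p (0.11), miR-199a-5p (0.12) and the joined row of miR-199a-3p and miR-199b-3p (0.14), with a median of 0.50. For miR-24-3p they were the myeloid miR-223-3p (0.08), miR-93-5p (0.08) and miR-708-5p (0.10), with a median of 0.41. The seed neighbour of miR-27, miR-128-3p, had 33, 43 and 57 counts in sEVs and 45, 114 and 106 in lEVs. It fell by 1.18 on the log2 scale in edgeR's test (adjusted p = 0.00101), opposite in sign to the uncalled change of miR-27a-3p/27b-3p.

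Across the 15 settings tried, miR-23a-3p/23b-3p was called in 15 of 15, with log2 fold changes between 0.72 and 0.90, and miR-24-3p and miR-27a-5p in none. miR-27a-3p/27b-3p was called in 1, the fit without lEVs replicate 1.

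**Figure D5:**
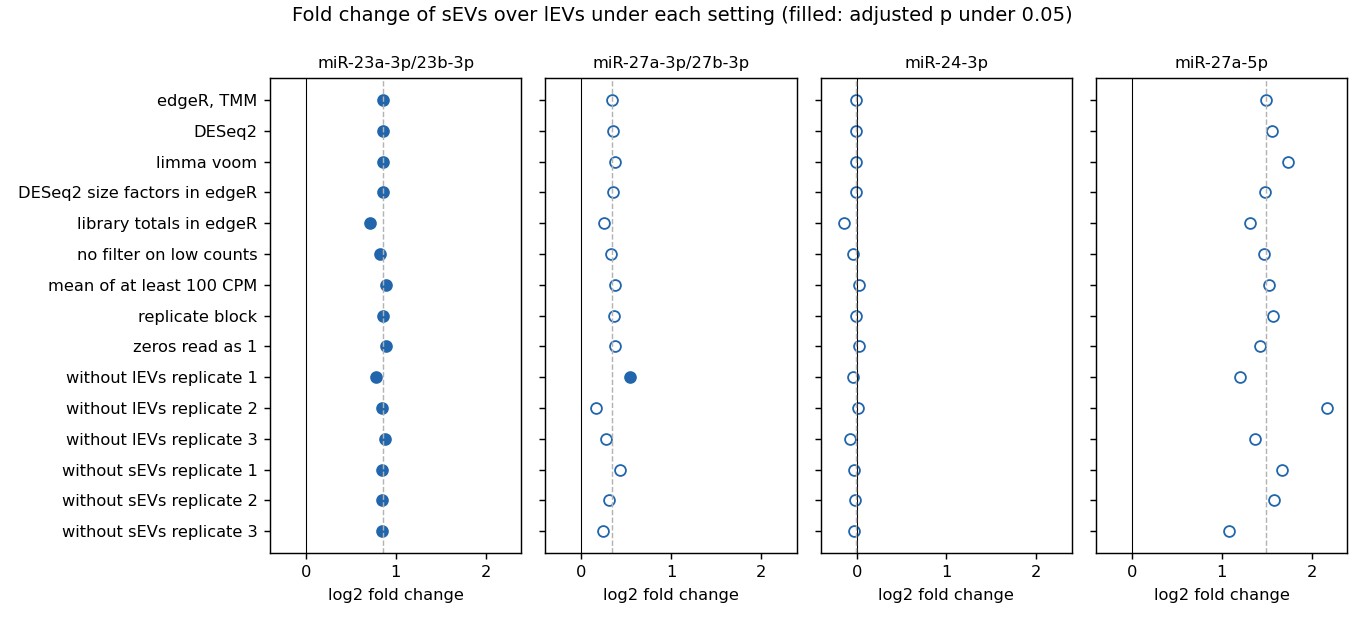
Log2 fold change of sEVs over lEVs (x axis) of each cluster product under the 15 settings (rows), filled where the adjusted p was under 0.05, with a dashed line at the value from edgeR with TMM. All points of miR-23a-3p/23b-3p are filled, and 1 of miR-27a-3p/27b-3p is, without lEVs replicate 1.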

How the data were processed

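Vesicle RNA from a miRNeasy kit was made into QIAseq miRNA libraries and read singly on a MiSeq, per the labels' protocols. The deposited values are raw whole-number counts per mature miRNA. The submitters' processing notes name the build GRCm38, R 4.2.2 and DESeq2 1.38.2. The aligner, the strand setting and the use of molecular identifiers: not given in the sources used here.

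Columns were assigned by the labels. Counts were tested with edgeR 4.0.16 (quasi-likelihood, TMM, filterByExpr), Benjamini-Hochberg over 145 of 327 rows above 0. The filter asked for a total of 15 counts and for the CPM that 10 counts make in a library of median size. SEs are the absolute log2 fold change over the square root of F. Log2 ratios (pseudocount 0.5) were fitted with limma 3.58.1. Both fits were run on simulated data, with limits on missed and false calls set for edgeR only. For the limma ratios only the sign of the recovered changes was checked. The simulated spread between libraries was smaller than the common spread edgeR estimated here. The other settings were DESeq2 1.42.0, voom, other scalings and filters, a block, and each library left out; reading 0 as 1 and leaving out libraries from the shares were added later. Within a fraction, chi-square over degrees of freedom was 2.35 to 23.7, so no libraries were duplicates. Named miRNAs were the members, the other arms, the neighbour ratios, seed matches and the 3 nearest profiles. Members and lists were chosen with earlier results of these data known.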

Additional observations from a re-analysis of the deposited data

How the results depend on the processing

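The number of called miRNAs was 25, and 53 without the filter on low counts. It ranged from 16 (without lEVs replicate 3) to 52 (without lEVs replicate 1) with one library left out. The log2 fold change of miR-24-3p was -0.14 with library totals. It turned from -0.01 to 0.023 where only rows averaging 100 CPM or more were tested and to 0.025 with zeros read as 1. With each library left out in turn, its log2 fold change ranged from -0.070 to 0.014. That of miR-27a-3p/27b-3p ranged from 0.17 to 0.54, and its log2 ratio to miR-24-3p from 0.16 to 0.57. The log2 ratio of miR-23a-3p/23b-3p to miR-27a-3p/27b-3p ranged from 0.24 to 0.69, and that of miR-27a-5p to miR-27a-3p/27b-3p from 0.60 to 2.42, with no call. The share of miR-27a-3p/27b-3p within the 3 main members differed by -5.80 to 1.61 percentage points. Without lEVs replicate 1 the fold change of miR-27a-3p/27b-3p and its ratio to miR-24-3p passed and its share difference turned positive; the cause was not tested. The log2 ratio of the joint share of the 4 members was 0.32 on library totals and 0.43 in CPM with TMM factors, where the factors differ by construction. The other settings changed no call of a member or ratio. Without a pseudocount, miR-27a-5p has no ratio, since it is at 0 in lEVs replicate 1. With the replicate number as a block, 26 miRNAs were called and no call of a member or ratio changed. Deviations of same-numbered libraries correlated at -0.04, 0.02 and 0.35, and lEVs replicate 1 correlated best with sEVs replicate 2, so the numbers were not taken as pairs. Depth limits miR-27a-5p most, with 0 to 26 counts.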
